A study of Drosophila melanogaster with 3 samples.

Results

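The Hippo pathway genes described here are 10 genes chosen by name, through their Ensembl symbols, out of 13945 protein-coding genes on the chromosome arms of Drosophila melanogaster: kibra, ex, Mer, ft, hpo, sav, wts, mats, yki and sd. All 10 were found in the annotation under these symbols. BEAF-32, a protein that binds DNA at chromatin boundaries and promoters, was located by sequencing the DNA that immunoprecipitated with it from whole embryos of 0 to 14 hours, males and females together, from a transgenic line in which BEAF-32 carried GFP at its C terminus. The labels' description names an antibody to GFP, while their antibody field gives BEAF-32, so whether untagged BEAF-32 was also precipitated cannot be told. The 3 biological replicates formed a single group. Counts were therefore set beside the share of all coding genes, signals beside those of all bound genes or all summits, and libraries beside each other. Whole embryos mix many cell types and stages, so weak binding in many cells and strong binding in few cells cannot be told apart.

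The Hippo pathway limits organ growth. The kinase Hippo (hpo) with its scaffold Salvador (sav) activates the kinase Warts (wts) with its cofactor Mats (mats), and Warts phosphorylates the coactivator Yorkie (yki), which is then kept out of the nucleus. Yorkie that enters the nucleus works with the DNA-binding protein Scalloped (sd) to switch on genes of growth and survival. Kibra (kibra), Expanded (ex) and Merlin (Mer) act together at the cell cortex upstream of the kinases, and Fat (ft) is a large cadherin that feeds into the pathway from the cell surface.

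A peak's summit is its highest point, and its signal is the authors' own value, which has no stated scale and is compared within a list only. The IDR list holds the 6070 summits that passed the authors' irreproducible discovery rate threshold, and these were the strongest 6070 of the 30000 in the pooled relaxed list. The pooled relaxed list was made as input for IDR and holds background as well as peaks. The relaxed lists of replicates 1, 2 and 3 held 26497, 30000 and 30000 summits, and ranks count down from the strongest summit of each list. A gene counted as bound if any annotated start had an IDR summit no more than 500 bp away, and a summit as found in a replicate when it lay inside any of that replicate's 6070 strongest regions. No read totals were at hand, so the depth of each library is unknown. Positions are 1-based in build dm6.

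Of the 10 genes, 7 were bound (kibra, Mer, hpo, sav, wts, mats and sd), against 43.7% of all coding genes. All 4 genes of the kinase cassette were bound, as were 2 of the 4 upstream genes and 1 of the 2 nuclear effectors. The exceptions were ex, ft and yki, and yki missed by distance alone, with a summit of signal 3509 lying 559 bp from its start. The share of coding genes bound was 42.9%, 39.5% and 42.2% in the strongest regions of replicates 1, 2 and 3, and 6, 7 and 6 of the 10 genes had a summit within 500 bp there. In every replicate these were kibra, Mer, hpo, sav, wts and mats, where 38.6% of coding genes had a summit in each of the 3. No test was made over the 10 genes, which were chosen by name and with earlier results of these data known.

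The bases to each side of a member's summit were searched for the strings that the results below count. BEAF-32 is known to recognise the string CGATA, called the core here, which was counted on both strands. The palindrome TATCGATA, the element of the factor Dref, therefore counts as 2 core copies. In the windows below, capitals mark CGATA on either strand (TATCG is its reverse complement) or GGTCACACT on either strand, known as core promoter motif 1. Each window holds up to 100 bases to each side of a summit, taken from the plus strand, with transcribed bases left off. The windows come from build dm6. The first group shows the 3 members on arm 3R with a core at the summit, in falling order of signal.

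kibra, chr3R:14724262-14724457, 196 bases: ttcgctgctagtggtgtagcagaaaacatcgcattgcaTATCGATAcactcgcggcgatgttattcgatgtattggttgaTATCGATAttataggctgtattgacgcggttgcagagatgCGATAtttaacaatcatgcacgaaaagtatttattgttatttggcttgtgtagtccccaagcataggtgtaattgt
wts, chr3R:30806620-30806792, 173 bases: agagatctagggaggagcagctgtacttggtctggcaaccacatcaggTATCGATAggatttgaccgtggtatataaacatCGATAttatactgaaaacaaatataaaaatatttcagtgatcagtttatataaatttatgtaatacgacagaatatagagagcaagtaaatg
sav, chr3R:23061362-23061492, 131 bases: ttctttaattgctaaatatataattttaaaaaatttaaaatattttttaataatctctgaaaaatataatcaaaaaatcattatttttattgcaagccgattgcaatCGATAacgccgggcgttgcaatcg

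The kibra window held 5 core copies, 4 of which belonged to 2 TATCGATA palindromes. The wts window held 3, and 5 further copies within 100 bp of that summit lay in transcribed bases that are not shown. The sav window held 1. Of 2 further copies, 1 lay across the start of its neighbour and the other past that start. The second group shows the summits at Mer and mats, where no core lay in the untranscribed bases, and the strongest relaxed summit at ex, which did not reach the IDR list.

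Mer, chrX:19693501-19693668, 168 bases: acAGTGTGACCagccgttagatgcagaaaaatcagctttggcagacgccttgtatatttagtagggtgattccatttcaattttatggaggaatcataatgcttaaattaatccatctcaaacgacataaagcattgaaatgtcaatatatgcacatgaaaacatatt
mats, chr3R:22421069-22421160, 92 bases: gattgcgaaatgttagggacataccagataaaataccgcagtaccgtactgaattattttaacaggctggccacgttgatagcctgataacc
ex, chr2L:430947-431147, 201 bases: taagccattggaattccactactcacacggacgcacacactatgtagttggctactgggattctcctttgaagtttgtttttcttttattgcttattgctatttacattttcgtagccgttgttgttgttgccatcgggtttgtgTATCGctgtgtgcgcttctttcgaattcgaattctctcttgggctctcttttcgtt

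In the Mer window the capitals are motif 1. The ex window held a single core copy. The mats window, the whole gap between mats and its neighbour Nop56, held neither string, and a motif 1 copy within 100 bp of that summit lay in transcribed bases of Nop56.

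Among the upstream genes, kibra (FBgn0262127), whose product is a scaffold with WW domains, had the strongest summit. It lay on 3R at 14724357, 96 bp upstream of the only annotated start, in a region from 14723798 to 14725026 of 1229 bp. Its IDR signal of 16076 ranked 9 of 6070, and 14 of the 6092 bound coding genes had a stronger summit. The replicates gave signals of 5374, 4810 and 6100 at ranks 24, 4 and 10. The rank was thus within the strongest 24 of each library, and the summits of the replicates lay 16, 1 and 0 bp from the pooled summit.

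A second strong summit stood at the other end of kibra. It lay 281 bp past the 3′ end of the gene and 116 bp upstream of Meltrin, a metalloprotease gene on the same strand, with a signal of 7835 at rank 282. Its ranks in the replicates were 304, 219 and 359. Between both summits, 26949 bp apart, the gene held 17 summits of the pooled relaxed list and none of the IDR list, and the strongest of the 17 had a signal of 111.

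Mer (FBgn0086384), the fly relative of the human tumour suppressor NF2, carried a weaker summit. On X at 19693568 it stood 68 bp upstream of its only start, with a signal of 345 at rank 4006, below the median of 1096 over the strongest summits of all bound coding genes. The replicates gave signals of 133, 91.5 and 145 at ranks 4004, 5331 and 4033. Replicate 2 ranked it lowest, and all 3 placed it among their strongest 6070. A second summit of the same region, 270 bp upstream with a signal of 154, was found in 2 of the 3 replicates, and its rank in replicate 2 was 10126.

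No IDR summit lay near the start of ex (FBgn0004583), which encodes a FERM-domain protein and is itself a known Yorkie target. The nearest to the start was 9726 bp away, upstream at CG11885 (signal 10210, rank 119), and 30.3% of coding genes had the nearest IDR summit farther from a start. Another lay 4311 bp past the 3′ end, at crq (signal 409, rank 3672). In the pooled relaxed list a summit of signal 77.5 stood 180 bp upstream of the start of ex at rank 7802, with a deposited −log10 q-value of 4.24, equal to that of every IDR summit. The strongest summits within 500 bp in replicates 1, 2 and 3 had signals of 11.0, 30.8 and 37.1 at ranks 17299, 9181 and 7773. They lay 182, 253 and 87 bp upstream of the start, with −log10 q-values of 0.33, 3.79 and 4.24. Each library thus listed an entry there, that of replicate 1 far down its list. Whether these entries are binding or background was not tested.

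At ft (FBgn0001075) the start had no IDR summit and hardly a relaxed one. The pooled relaxed list had a summit of signal 28.7 at 403 bp inside the gene, at rank 15824 with a −log10 q-value of 1.04. Replicate 2 had a summit of signal 12.7 within 500 bp at rank 21791, and replicates 1 and 3 had none, their nearest summits being 1228 and 731 bp away. The only IDR summit close to the gene lay 257 bp past its 3′ end, at Naprt, with a signal of 140 at rank 6051 of 6070, and it was found in replicate 1 alone.

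**Figure D1:**
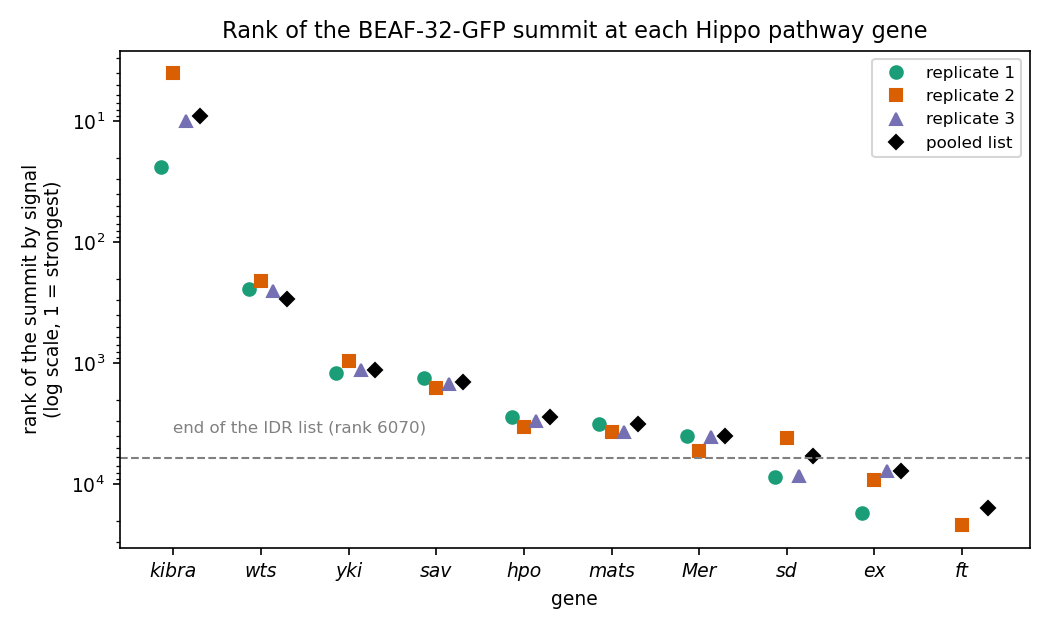
Rank of the summit at each of the 10 genes by signal, on a log axis with rank 1 at the top, in replicates 1 to 3 (circles, squares, triangles) and in the pooled list (diamonds), for yki the summit 559 bp from its start and for ex and ft the strongest relaxed summit within 500 bp. From kibra to Mer every replicate lay above the dashed line at rank 6070, sd had only replicate 2 and the pooled list above it, and ft had no summit in replicates 1 and 3.

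In the kinase cassette, wts (FBgn0011739) had the strongest summit. It lay on 3R at 30806692, 73 bp upstream of the only start, with a signal of 7647 at rank 295, above 92.4% of bound coding genes. The replicates gave signals of 3059, 2432 and 3086 at ranks 242, 210 and 250. The same region of 1576 bp, from 30806052 to 30807627, held a second summit 286 bp upstream of wts with a signal of 4786 at rank 787, and its ranks in the replicates were 673, 554 and 603. Both lay between wts and dj-1beta, a gene of oxidative stress defence that starts 498 bp away on the other strand.

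The only IDR summit inside any of the 10 genes was in an intron of wts. It lay 11374 bp downstream of the start, at 30795245, with a signal of 758 at rank 2651. The replicates gave signals of 213, 319 and 278 at ranks 3098, 2503 and 2796, so it was found in all 3. A further IDR summit stood 112 bp past the 3′ end of wts (signal 583, rank 3023), 6255 bp from the nearest coding start, that of zfh1. It was found in all 3 replicates too, at ranks 3057, 3694 and 3273.

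The summit at sav (FBgn0053193) was of intermediate strength. It lay on 3R at 23061462 with a signal of 2662 at rank 1422, above 66.2% of bound coding genes. Replicates 1, 2 and 3 gave 1100, 670 and 946 at ranks 1315, 1601 and 1495. It was 158 bp upstream of sav and 31 bp upstream of Ublcp1, a phosphatase gene on the other strand, whose start is 189 bp from that of sav.

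The summit at hpo (FBgn0261456) was weaker than those at wts and sav. It lay on 2R at 19496916, 60 bp upstream, with a signal of 697 at rank 2767, and 39.7% of bound coding genes had a lower one. The replicates gave signals of 267, 201 and 243 at ranks 2765, 3344 and 3002. The facing gene CG15120 starts 896 bp away and was not bound, since the summit, which lies between both starts, was over 500 bp from its start.

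The summit at mats (FBgn0038965) was the weakest of the cassette. It lay on 3R at 22421114, 47 bp upstream of the first of 2 starts and 211 bp upstream of the other, with a signal of 542 at rank 3155. Replicates 1, 2 and 3 gave 203, 172 and 173 at ranks 3169, 3676 and 3670. It was 46 bp upstream of Nop56, a gene of ribosomal RNA processing that starts 93 bp from mats on the other strand, so it lay midway between both starts.

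The summit next to yki (FBgn0034970) sat at its neighbour. It lay on 2R at 24069044, in a 5′ untranslated region of Gpat4, a gene of lipid synthesis, 6 bp upstream of the nearest of the 2 Gpat4 starts. That start is 565 bp from the start of yki and the other is 272 bp from it, and both face away from yki. The summit ranked 1131 in the IDR list, and the replicates gave signals of 1221, 1160 and 1332 at ranks 1192, 958 and 1131. Its region, from 24068163 to 24069561, reached over the start of yki at 24068485. With any base of a region within 500 bp counted in place of the summit, yki was bound, as it was at a distance of 1000 bp, where 8 of the 10 genes and 46.3% of coding genes were bound.

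The summit that counted for sd (FBgn0003345) was the weakest of all and also faced a neighbour. It lay on X at 15803984, 386 bp upstream of the first sd start and 104 bp upstream of a start of PGRP-LE, a gene of bacterial recognition in immunity that starts 490 bp away on the other strand. Its signal of 154 ranked 5802 of 6070, and 1.41% of bound coding genes had a lower one. The summits nearest to it in the replicates had signals of 23.6, 142 and 30.7 at ranks 8679, 4152 and 8579, and lay 43, 97 and 56 bp from it. A neighbouring IDR summit stood 586 bp upstream of sd (signal 341, rank 4038), with ranks of 5092, 4152 and 3837. In replicate 2 the same summit, between both, was the nearest to each, and in replicates 1 and 3 only the neighbour was among the strongest 6070. With 250 bp in place of 500 bp, sd was not bound, and 6 of the 10 genes were, against 39.4% of coding genes.

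The other starts of sd were without IDR summits. The gene has 7 distinct starts for 22 transcripts, and the fourth start, used by 12 of these, was 8343 bp from the nearest IDR summit. Starts 2 to 7 were 1523 to 14167 bp from it. In the pooled relaxed list, starts 2 to 5 had a summit within 500 bp with signals of 75.8, 71.4, 71.4 (the same summit as for the start before it) and 59.2, at ranks 7864 to 8913. Starts 6 and 7 had none, their nearest being 1411 and 686 bp away. A strong summit, 1353 bp upstream of sd with a signal of 2576 at rank 1450, lay 48 bp upstream of the other start of PGRP-LE.

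**Figure D2:**
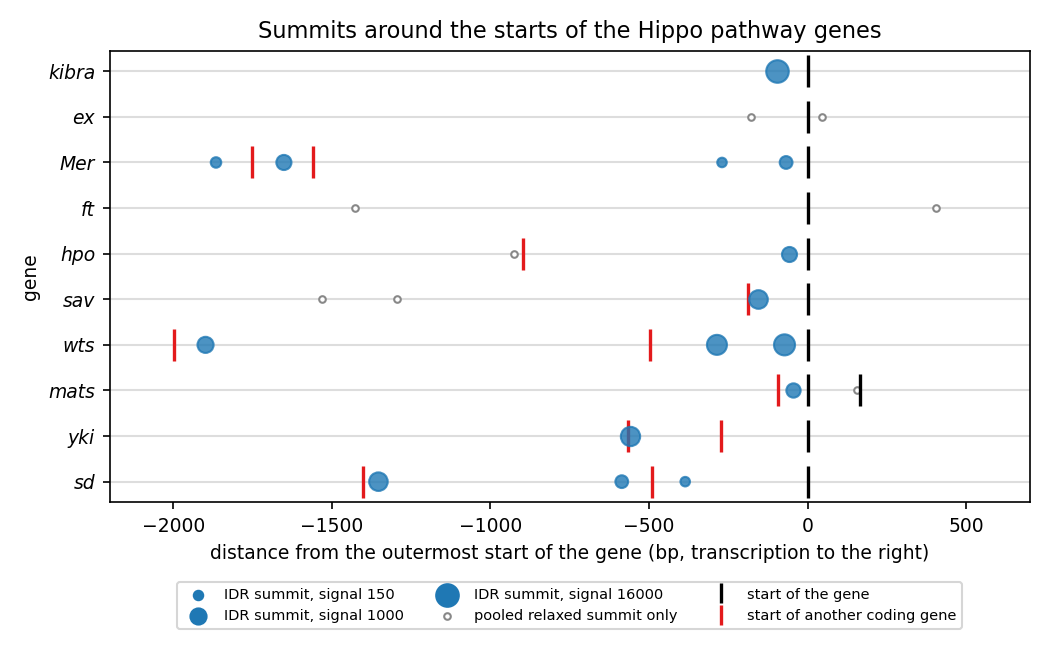
Position of IDR summits (blue, larger for higher signal) and of summits in the pooled relaxed list only (open circles) around each gene's outermost start, with distance in bp on the axis and upstream to the left. Black ticks are starts of the gene and red ticks those of other coding genes. The summits at kibra, Mer, hpo, wts, sav and mats lay 47 to 158 bp upstream of the start, while that of yki lay on the red tick at 565 bp and those of sd to either side of a start of PGRP-LE.

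The order of the summits by signal was kibra, wts, yki, sav, hpo, mats, Mer and sd, and the first 7 kept it in all 3 replicates. Signals were divided within each library to set neighbours in this order side by side. The ratio of kibra to wts was 1.90 ± 0.127, that of wts to yki 2.31 ± 0.205, and that of sav to hpo 3.78 ± 0.405 (mean ± SD, n = 3 libraries each). The steps from yki to sav (1.42 ± 0.311), from hpo to mats (1.30 ± 0.119) and from mats to Mer (1.53 ± 0.343) were smaller, and the lowest ratio of any library among them was 1.11. The ratio of Mer to sd was 5.64, 0.644 and 4.72 in replicates 1, 2 and 3, and the value of replicate 2 used the summit shared by sd and its neighbour. The order of Mer and sd was therefore not settled by replicate 2, while Mer was higher in the other replicates. The IDR list was made from these same libraries, so the order in it is not independent of theirs, and no test was made of it.

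The core stood within 100 bp of 5 of the 8 summits at or next to the members, yki included, against 58.3% of all 6070 IDR summits and 37.1% of the 19252 coding start sites. The copies were 8 at wts, 5 at kibra, 3 at sav, 2 at hpo and 1 at Mer, with none at yki, mats and sd. TATCGATA was found at wts (3 copies), kibra (2) and hpo (1), against 16.9% of IDR summits and 6.45% of starts. Motif 1 was found at Mer and mats, against 8.27% and 4.42%. GAGAG, the string of GAGA factor, was found at wts and mats, against 16.1% and 25%. A match describes the letters in the window only.

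Among the members, kibra and wts had both the most core copies and the highest signals, while yki came next in signal without a copy. The median signal of all IDR summits was 326 without a core, 559 with 1, 1509 with 2, 2830 with 3, 3316 with 4, 3712 with 5 and 6038 with 6 or more. The kibra summit was above 99.3% of the 143 summits with 5 copies. The sav summit, at 3 copies, was above 47.8% of its class, and wts, with 6 or more, above 65.0%. The hpo summit, with 2 copies, was above 31.1% of its class, and Mer, with 1, above 34.7%. The yki summit was above 96.4% of the 2532 summits without a core, and its nearest core was 548 bp away, the only copy in its region of 1399 bp. The mats summit was above 73.3% of the same class and sd above 6.91%, and the nearest core to mats was 1316 bp away.

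**Figure D3:**
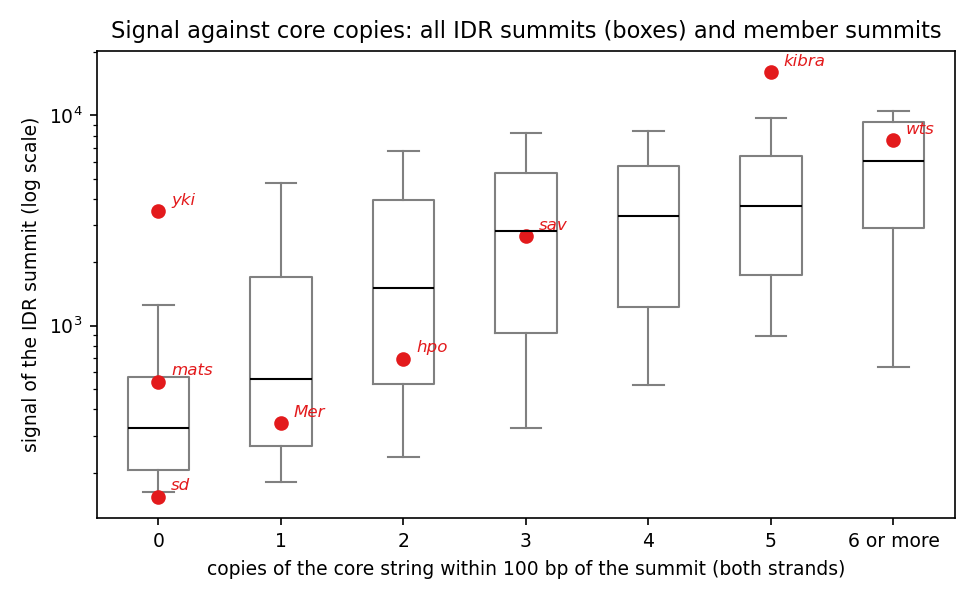
Signal of IDR summits on a log axis against the number of core copies within 100 bp of the summit on both strands. Boxes show the quartiles and median of all 6070 IDR summits and whiskers the 10th and 90th percentiles, and red points are the summits of the members. The kibra point stands above the whisker at 5 copies and yki above that at 0, and sd lies below the lower whisker at 0.

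Members with a divergent partner, a coding gene on the other strand starting within 1000 bp and transcribed away, were bound at 5 of 6, and those without at 2 of 4. Among all coding genes 76.8% of 5052 with such a partner were bound and 24.9% of 8893 without. All 4 genes of the kinase cassette had such a partner, so 76.8% is the share to set beside their 4 of 4. The partners were CG15120 (hpo), Ublcp1 (sav), dj-1beta (wts), Nop56 (mats), Gpat4 (yki) and PGRP-LE (sd), and 5 of these 6 were bound, CG15120 being the exception. A summit between both starts cannot be assigned to either gene. The strongest member summit, at kibra, had no such partner, and neither had Mer.

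Apart from wts, the longer genes held only weak summits between their ends. The pooled relaxed list had 17 summits inside wts (10 per 10 kb), 17 inside kibra (6.40 per 10 kb), 16 inside sd (6.86), 5 inside ex (2.86) and 3 inside ft (1.28), against 2.24 per 10 kb of the arms. Among the shorter genes Mer had 10.5 per 10 kb, mats 9.34, yki 7.96, sav 7.42 and hpo 0. The density inside all coding genes was not computed. The strongest summits inside sd, ex and ft had signals of 75.8, 51.1 and 28.7. In the pooled relaxed list 59.7% of coding genes had a summit within 500 bp of a start, and 9 of the 10 members had, all but yki.

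**Figure D4:**
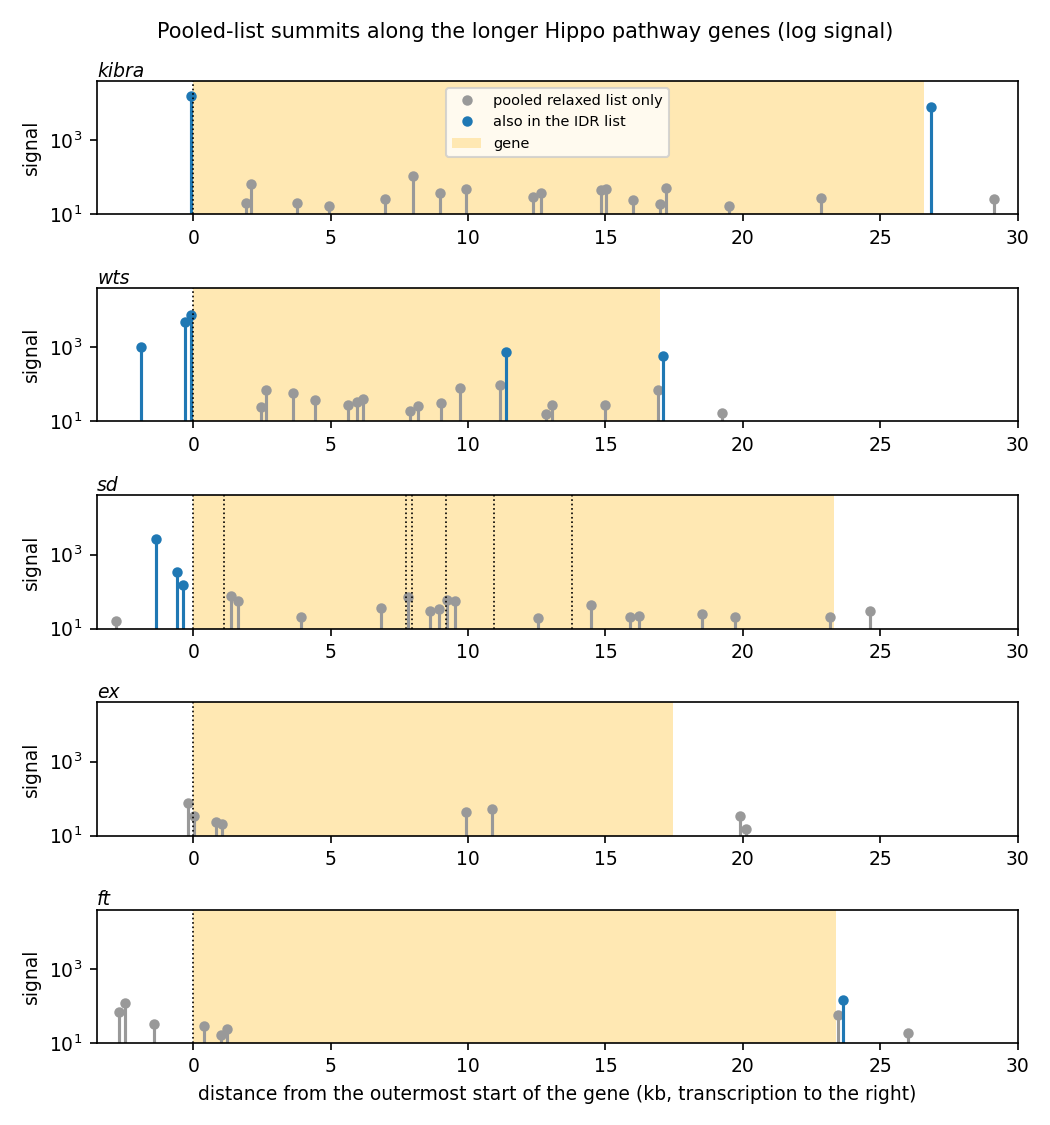
Summits of the pooled list along kibra, wts, sd, ex and ft, with signal on a log axis against distance from the outermost start in kb, the gene shaded and its starts dotted. Blue summits are also in the IDR list, and grey ones are not. The kibra gene has tall blue summits at both ends, wts has a blue summit inside, and ex has no blue summit in the range shown.

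Most further genes of the pathway were bound as well. Of 50 other coding genes on a list of regulators, nuclear partners and targets, 37 were bound (74.0%, against 43.7% of coding genes), with signals from 147 to 10455 and a median of 1091. Of the 37, 34 had a summit within 500 bp in all 3 replicates, the others being app and beta-Spec in 2 and Slmap in 1. That is 34 of the 50, against 38.6% of coding genes. Where the listed genes had a divergent partner 20 of 21 were bound, against 76.8% of coding genes with a partner, and where they had none 17 of 29, against 24.9%. The list was drawn up with earlier results of these data known, so its count is a description without a test.

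By role, 28 of 36 upstream regulators, 5 of 8 nuclear partners and 4 of 6 targets were bound, against 43.7% of all coding genes. The counts of nuclear partners and targets are small. The upstream regulators were led by hppy (signal 10455, rank 106), a kinase that can activate Warts, Mob4 (8262), a part of the phosphatase complex that opposes Hippo, and aPKC (7319), a kinase of apical polarity. Among the 8 unbound ones, the nearest IDR summit lay 100987 bp from ds, 101440 bp from ed, an adhesion molecule of epithelia, and 12896 bp from Fbxl7. Over all 8 this distance ran from 1373 to 101440 bp. Among the nuclear partners, Tgi (5916), a repressor that binds Scalloped and Yorkie, mask (5504) and Wbp2 (2055), both cofactors of Yorkie, led, and hth, tsh and vg were unbound. Among the targets, E2f1 (5881), an activator of the cell cycle, Diap1 (5362), an inhibitor of cell death, CycE (327), a cyclin of S phase entry, and dally (228), a proteoglycan, were bound, and Myc and wg were not, with the nearest IDR summits 23879 and 16352 bp away.

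**Figure D5:**
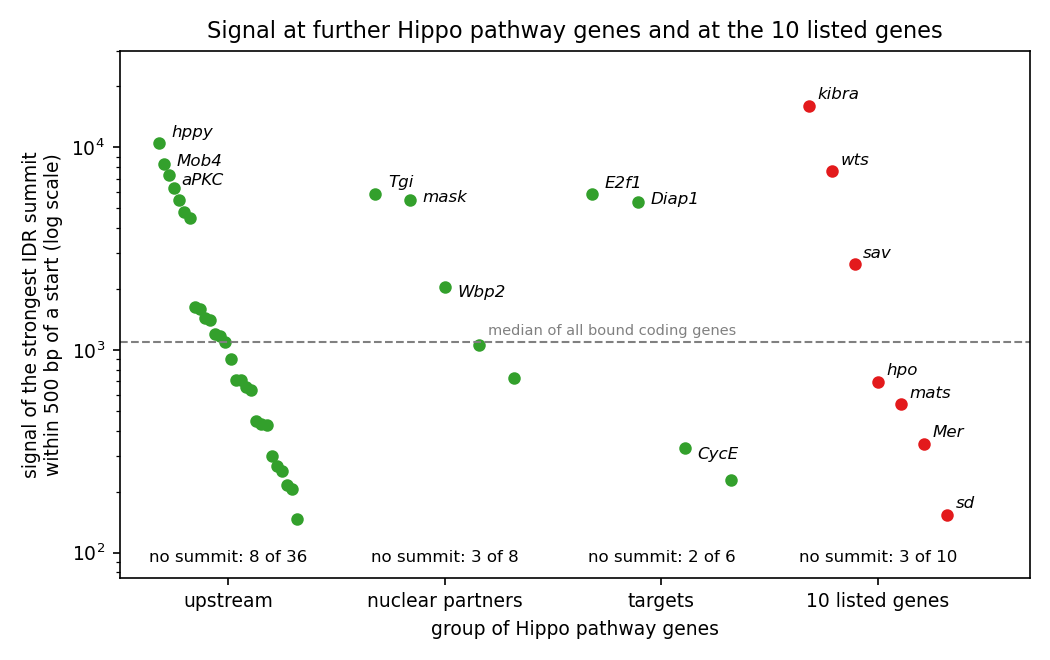
Signal of the strongest IDR summit within 500 bp of a start, on a log axis, for the further Hippo pathway genes by role (green) and for the 10 listed genes (red), with the number of genes without a summit written below. The dashed line is the median of 1096 over all bound coding genes, and kibra lies above every green point.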

How the data were processed

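BEAF-32-GFP was mapped in 3 libraries of a single group, whose replicate numbers come from the labels, with chromatin sheared to 200 to 800 bp. Per the file headers of the text files that came with each library, the authors derived a relaxed peak list from every replicate alignment and from the 3 together, in each case against a control alignment. The IDR list was then derived from the relaxed lists. The signal of each peak is the authors' deposited value, on a scale that no source used here gives, and the deposited −log10 q-value was quoted only at ex and ft. The sources used here name no aligner, caller or threshold. Depth is unknown. The dm3 lists were not analysed here. The replicate lists shared 0 identical lines.

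Transcript starts are those of Ensembl release 115 (BDGP6.54), and sequence is that of the same assembly (RefSeq, dm6). The 10 members and the list of 50 further genes were chosen with earlier results of these data known. The symbols d and ban had become dachs and mir-ban, and mir-ban was left out as non-coding. All members and their partners are named, and of the other genes in each role the 3 of highest signal, plus the 3 unbound ones that come first by alphabet. Outside this rule dally, app, beta-Spec, Slmap, the genes near member summits and those in the closing section were named after their values were seen. A replicate's values at an IDR summit are those of its nearest summit among the regions holding that position. Summits upstream of a start lie before it in the direction of transcription. Each alternative in the closing section changed a single choice. The code was tested on simulated data. Python 3.11.15, numpy 2.4.6, pandas 2.3.3 and matplotlib 3.10.9 were used.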

Additional observations from a re-analysis of the deposited data

How the results depend on the processing

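The 7 bound members became 4 (kibra, hpo, sav and wts) with the strongest 3035 summits of the IDR list only, a change made by the shorter list, which also took the share of coding genes from 43.7% to 28.5%. The other 9 alternatives for distance, list and starts gave 6 to 9 members, against 39.4% to 59.7% of coding genes. The 9 members came from the pooled relaxed list, where the share was 59.7%. RefSeq starts or the outermost start gave 7. Of the further pathway genes, 26 were bound with the strongest 3035 summits (28.5% of coding genes) and 44 with the pooled relaxed list (59.7%), against 37. The other alternatives lay between these. The summits of 7 bound members lay in the strongest regions of all 3 replicates, for sd through the region of the neighbouring summit. Leaving out a replicate or using longer lists can only keep these 7, so those alternatives say nothing about stability. A core stood within 50 bp of 3 of the 8 member summits and within 200 bp of 6, against 5 at 100 bp, where 45.3% and 70.3% of all IDR summits had a copy. When a replicate was left out, the median rank ran from 7 to 17 at kibra, 226 to 246 at wts, 3419.5 to 3673 at mats and 6365.5 to 8629 at sd. The median of 3 values cannot move by 1 SD when any of them is left out, so these ranges are values and no sign of stability. No paired analysis was possible because there is a single group. Depth is unknown, so whether the weak summits at ex and ft would pass with more reads was not tested.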

Other observations

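The following groups within the list of further pathway genes were put together after their values were seen, and their counts are given as values only. In the branch around Fat, ds, the cadherin that is the ligand of Fat, had its nearest IDR summit 100987 bp from a start, fj, a kinase that modifies both cadherins, 26085 bp, Fbxl7 12896 bp and lft 1512 bp, and ft itself 5224 bp. In the same branch dachs (signal 707), Dlish (655), dco (433) and app (253) were bound. In the phosphatase complex that opposes Hippo, the 5 listed genes were bound (43.7% of all coding genes were), with signals of 8262 at Mob4, 1633 at Strip, 1401 at mts, 266 at Cka and 207 at Slmap. Mob4, Strip and mts had a divergent partner, and 76.8% of all coding genes with a partner were bound. Cka and Slmap had none, and 24.9% of coding genes without a partner were bound. The weakest of the 5 genes, Slmap, had a summit within 500 bp in the strongest regions of 1 of the 3 replicates. No difference between the groups was tested.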
